A study of Mus musculus with 6 samples.

Results

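DNA replication and mitosis genes are described here in whole mouse fetuses that overexpressed KLF12, a zinc-finger transcription factor, and in wild-type (WT) fetuses. The list holds 40 genes out of 17741 rows of the deposited table, 20 that act in DNA replication and 20 that act in mitosis. The members were listed by name, with no measured value in the rule, and were found by NCBI gene number. They were, however, chosen with earlier results of these data known. All 40 were in the table, and all 40 passed the filter on low values, an average of 1 FPKM or more across the 6 libraries (FPKM, fragments per kilobase of transcript and per unit of mapped fragments, is a level corrected for transcript length and library size). The study asked by which mechanisms excess KLF12 causes neural tube defects, and compared C57BL/6 fetuses of 9.0 dpc (days post coitum), 3 of the WT genotype and 3 with KLF12 overexpression. RNA was taken from the fetus as a whole. The promoter of the overexpression construct, the number of lines and whether a library is 1 fetus or a pool are not given in the sources used here. The p-values therefore rest on the spread of these samples alone, part of which may be technical.

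Cell division runs through ordered steps that these genes carry out. In G1, the licensing factors Cdc6 and Cdt1 load the ring of 6 MCM proteins (Mcm2 to Mcm7) onto replication origins. At the start of S phase Cdc45 and the GINS complex turn that ring into the moving helicase, and polymerases, their sliding clamp Pcna and its loader copy the DNA from nucleotides that ribonucleotide reductase and thymidylate synthase supply. In G2 and M phase, cyclin-dependent kinase 1 with its cyclins drives entry into mitosis, kinases and motors build the spindle, and the anaphase-promoting complex (APC/C) ends the phase. Transcription of many replication genes is driven by E2F factors, and that of many mitotic genes passes through a short promoter element, the cell cycle genes homology region (CHR). The neural tube at this stage is a rapidly dividing epithelium. KLF12 is known as a repressor that binds CACCC-type elements.

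The promoter stretches below are shown because they hold letters of the E2F or CHR elements, and because Cdc20, Plk1 and Cenpf among them had expression values that did not overlap between WT and KLF12 fetuses. They were taken from RefSeq windows of GRCm38.p6 that run from 250 bases before to 50 bases after the start of a gene, and such a window was found for 33 of the 40 genes. Capitals mark the letters of a searched motif on either strand. For E2F these were TTTCCCGC, TTTGGCGC, TTTCGCGC and TTTGCCGC, and for CHR they were TTTGAA and TTCGAA. The values of Mad2l1 did not overlap either, but its window held neither E2F nor CHR letters, so none of it is shown. In Mcm5 and Mcm6 E2F matches on opposite strands overlap and give 1 longer run of capitals. The CHR letters of Cenpf and Plk1 lie after the start of the gene, beginning at bases 3 and 31. In the other stretches the marked letters lie before the start.
Mcm6, chr1:128359706-128359835, minus strand: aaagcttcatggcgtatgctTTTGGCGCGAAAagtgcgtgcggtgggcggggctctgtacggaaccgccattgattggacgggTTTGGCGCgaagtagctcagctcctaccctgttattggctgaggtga
Mcm5, chr8:75109339-75109429, plus strand: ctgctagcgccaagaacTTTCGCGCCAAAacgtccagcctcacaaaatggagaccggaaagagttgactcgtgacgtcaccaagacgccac
Cdc6, chr11:98907991-98908080, plus strand: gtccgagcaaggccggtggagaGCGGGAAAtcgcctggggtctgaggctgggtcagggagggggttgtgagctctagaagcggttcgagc
Cdk1, chr10:69352913-69353062, minus strand: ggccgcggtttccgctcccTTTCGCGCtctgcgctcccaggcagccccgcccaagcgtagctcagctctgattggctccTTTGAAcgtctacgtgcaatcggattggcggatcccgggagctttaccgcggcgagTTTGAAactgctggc
Mki67, chr7:135716450-135716509, minus strand: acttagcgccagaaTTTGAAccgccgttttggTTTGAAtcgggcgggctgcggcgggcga
Ube2c, chr2:164769869-164769928, plus strand: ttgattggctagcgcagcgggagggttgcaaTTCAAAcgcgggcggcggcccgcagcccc
Cdc20, chr4:118437344-118437403, minus strand: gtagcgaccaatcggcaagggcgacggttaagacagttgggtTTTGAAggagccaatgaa
Cenpf, chr1:189688067-189688095, minus strand: gcggcgggcagTTTGAAtcgctcgtgctg
Plk1, chr7:122159453-122159482, plus strand: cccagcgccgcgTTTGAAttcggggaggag

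An E2F motif was found in the windows of 8 of 16 replication genes and of 1 of 17 mitosis genes, Cdk1, against 4.99% of 9465 genes with a window among those tested for expression. The CHR letters were found in 13 of 17 mitosis genes and 4 of 16 replication genes, against 16.1% of the same background. The letters CACCC, read on both strands, were in 12 of 16 replication genes and 5 of 17 mitosis genes, against 67.2%. These matches describe letters in a window and not bound sites. Of the stretches shown, those of Mcm6, Mcm5, Cdc6 and Cdk1 hold an E2F motif, and Cdk1 holds CHR letters as well. The median log2 difference, KLF12 minus WT, was -0.03 for the 17 genes with CHR letters and -0.08 for the 16 without, and it was 0.02 for the 9 genes with an E2F motif and -0.08 for the 24 without.

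Klf12 itself was listed at 1.99, 2.11 and 1.32 FPKM in WT libraries 1 to 3 and at 16.4, 15.2 and 23.9 FPKM in KLF12 libraries 1 to 3. The groups did not overlap, in the direction of the labels (exact two-sided permutation p = 0.1, the smallest that 3 samples against 3 allow). FPKM summed to between 528236 and 635381 per library. KLF12 library 3 stood apart: its log2 values correlated (Pearson, across genes) by 0.957 and 0.951 with KLF12 libraries 1 and 2, which correlated by 0.972 with each other, and WT libraries by 0.975 to 0.978. The Y-linked gene Ddx3y reached 6.62 FPKM in KLF12 library 3, was listed at 0 in the other two of its group, and lay at 1.80 to 4.45 in WT. Whole-fetus RNA mixes tissues. The summed level of 12 primitive erythroid markers was 5133 to 11709 FPKM in WT and 1338 to 4269 in the KLF12 group, with lower means in 12 of 12, and that of 13 yolk sac markers was 148 to 591 in WT and 481 to 731 in the KLF12 group, with higher means in 13 of 13. None of the erythroid and 1 of the yolk sac markers (Apom, in WT library 3 and KLF12 library 1) was listed at 0. Sums of 10 neural progenitor markers were 82.8 to 88.8 FPKM in WT and 72.8 to 177 in the KLF12 group, with the highest in library 3. Sums of 10 neuronal markers were 69.2 to 82.0 in WT and 30.6 to 38.8 in the KLF12 group (of 6 tested, 3 had values above 0, among them Isl1 and Nefl without overlap, and 3 below 0, of which Tubb3 and Gap43, which make up most of the sum in WT, were called), of 10 cardiac markers 1418 to 1548 and 899 to 1562 (Myl2, Myl3 and Myh7 called lower), and of 6 decidual and trophoblast markers 13.03 to 25.0 and 12.5 to 22.5. The part of these tissues in the results below was not tested. In such samples, fewer cells of a type and less RNA per cell cannot be told apart.

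Most of the 40 genes were strongly expressed in the fetus, and none of the 40 passed the test between KLF12 and WT fetuses. In WT, the median member had a level above 91.0% of the 12141 genes tested, and Pole, Cenpe, Pola1 and Cenpf lay nearest the middle, above 57.0% to 65.0% of them. By limma on log2(FPKM + 1), with Benjamini-Hochberg adjustment over all 12141 genes at 0.05, 0 of 20 replication genes and 0 of 20 mitosis genes were called, against 0.733% of all genes tested. At an unadjusted p under 0.05, 2 members passed, Plk1 and Cenpf, against 10.9% of all genes. The smallest adjusted p was 0.29 (Cenpf). The measured differences were small in both lists: the log2 difference ranged from -0.22 to 0.21 among the replication genes, with a median of -0.03, and from -0.36 to 0.44 among the mitosis genes, with a median of -0.08. The median over all genes tested was -0.02, and the replication median turned to 0.01 and 0.04 when libraries were scaled to equal sums (TPM) or by quantiles. With libraries weighted by their estimated variability (array weights of limma), Plk1, Cdc20 and Ube2c were called lower, 3 of 40 members against 13.1% of all genes called in that fit and 8.44% called lower. A fold change on the log2(FPKM + 1) scale is slightly understated, and least so at levels as high as these.

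**Figure D1:**
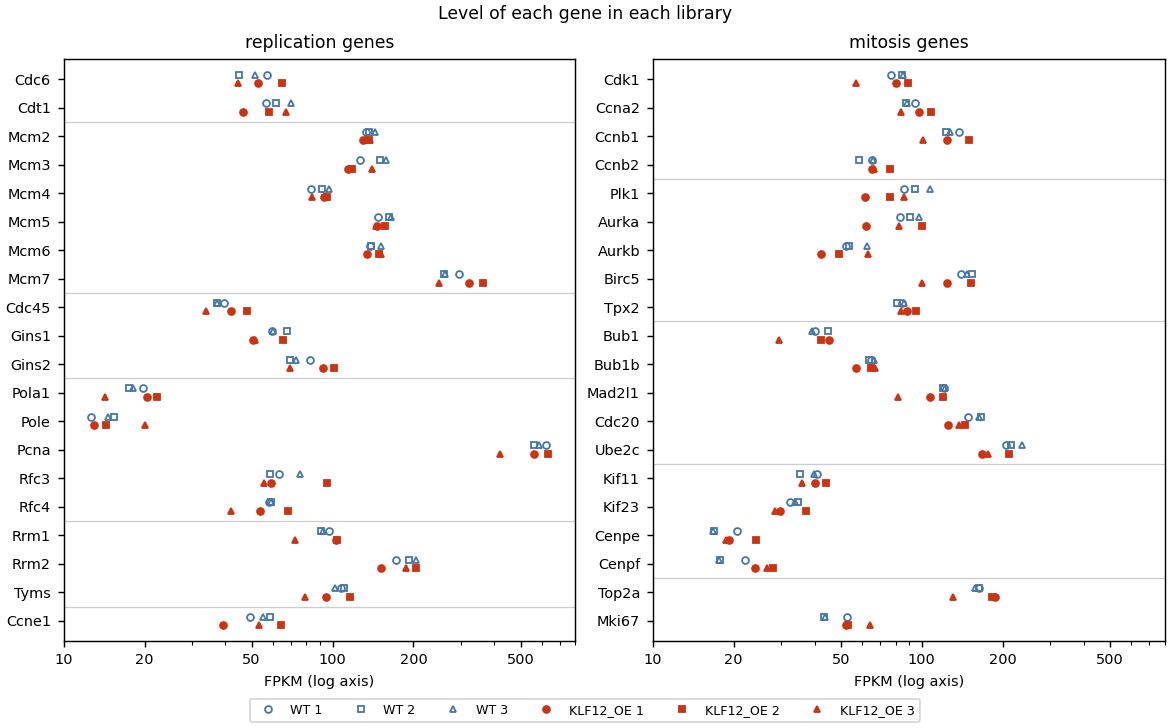
FPKM (log axis) of the 20 replication and 20 mitosis genes in the 3 WT (open symbols) and 3 KLF12_OE (filled symbols) libraries, with grey lines between roles. Pcna is the highest in every library, at 419 to 630.2 FPKM, and Pola1, Pole, Cenpe and Cenpf are the lowest, and for nearly every gene the filled symbols spread across or around the open ones.

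A p that misses the threshold does not show that the groups were alike, so the interval of each difference was taken. The 95% interval of limma lay within a 2-fold change either way for 40 of 40 members, compared with 84.4% of all genes. Within a 1.5-fold change it lay for 20 of 20 replication genes and 15 of 20 mitosis genes, compared with 42.5% of all genes. Most members are strongly expressed, and no comparison with genes of matched level was made. These intervals take 1 spread for both groups, while the SD was larger in the KLF12 group for 35 of 40 members. They may therefore be too narrow, and no interval with a separate spread for each group was taken. Half-widths ranged from 0.24 (Mcm2) to 0.46 (Rfc3) on the log2 scale. The 5 members whose interval reached past 1.5-fold were Plk1, Birc5 and Mad2l1 on the lower side and Cenpf and Mki67 on the higher side.

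**Figure D2:**
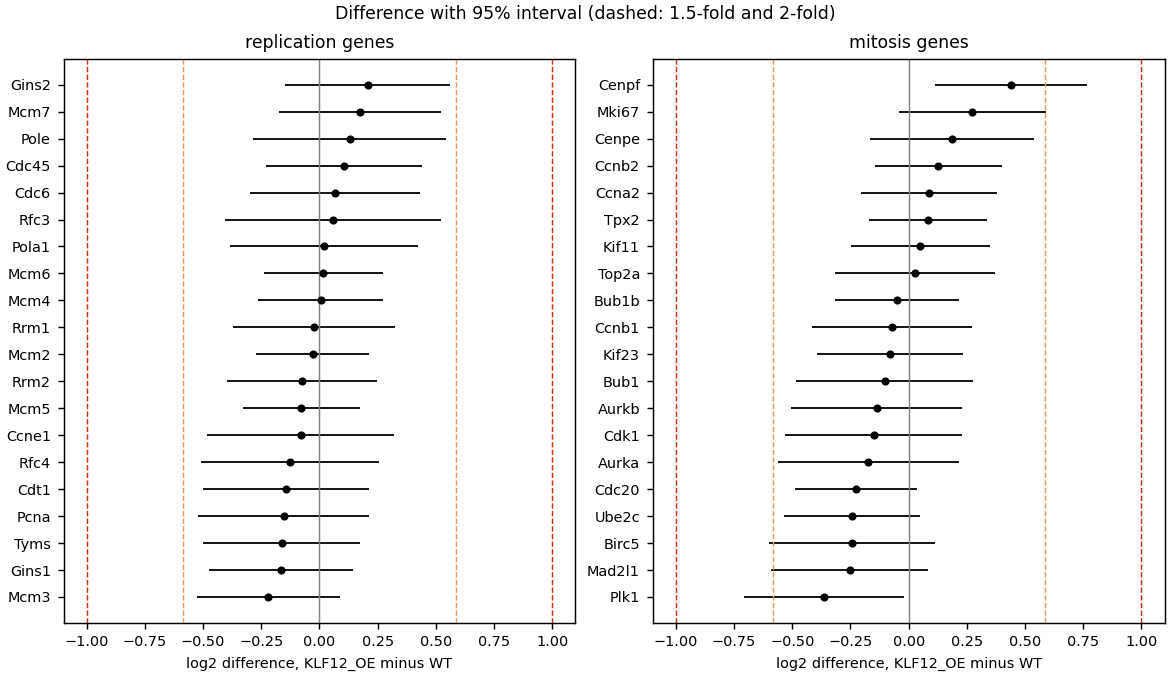
Log2 difference (KLF12_OE minus WT, points) with its 95% interval from limma (bars) for each gene, sorted within its list, with dashed lines at 1.5-fold and 2-fold. Every bar stays inside the 2-fold lines, and 2 of 40 leave out 0: Plk1 on the lower side and Cenpf on the higher side.

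Origin licensing factors had 1 value above and 1 below 0. Cdc6, the ATPase that helps to load the MCM ring, had a log2 difference of 0.07 ± 0.16 (SE), and Cdt1, its loading partner, one of -0.14 ± 0.16. Neither was called. Cdc6 was listed at 57.3, 44.8 and 51.4 FPKM in WT and at 52.9, 64.6 and 44.6 in the KLF12 group, with library 2 above and library 3 just below the WT range. Cdt1 was listed at 56.4, 61.7 and 70.0 FPKM in WT and at 46.4, 58.1 and 66.9 in the KLF12 group, where only library 1 left the WT range.

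The MCM helicase subunits had 3 of 6 values above 0, and 5 of 6 after quantile normalization. Mcm7 was listed at 296, 259 and 262 FPKM in WT and at 320.5, 363 and 249 FPKM in the KLF12 group. KLF12 libraries 1 and 2 lay above WT and library 3 below it, for a log2 difference of 0.17 ± 0.15 (limma adjusted p = 0.77). Mcm3 was listed at 127, 150.4 and 158 FPKM in WT and at 114, 118 and 141 in the KLF12 group, the largest difference in the lower direction among the replication genes (-0.22 ± 0.14, limma adjusted p = 0.63). Here the lowest WT library lay between KLF12 libraries 2 and 3. Mcm2, Mcm4, Mcm5 and Mcm6 had log2 differences of -0.03, 0.01, -0.08 and 0.02, each with an SE of 0.11 to 0.12. The 6 proteins form 1 ring, and their RNA levels per length were unequal. Mcm7 was the highest and Mcm4 the lowest subunit in 6 of 6 libraries, with a ratio of Mcm7 to Mcm4 of 2.71 to 3.55 in WT and 2.96 to 3.81 in the KLF12 group. Mcm2, Mcm3, Mcm5 and Mcm6 lay between them, and their order was not the same in all libraries. WT library 1 shared its order with KLF12 libraries 1 and 2, and WT libraries 2 and 3 shared another. In WT the subunits between Mcm7 and Mcm4 spanned 127 to 164 FPKM, and neighbours in the order of WT means overlapped.

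Helicase activation factors had 2 of 3 values above 0. Gins2, a subunit of the GINS complex, was listed at 82.6, 69.3 and 73.0 FPKM in WT and at 92.3, 101 and 69.3 in the KLF12 group. KLF12 libraries 1 and 2 lay above the WT range and library 3 at its lower end, for a difference of 0.21 ± 0.16 (limma adjusted p = 0.71), the highest among the replication genes. Gins1, of the same complex, was listed at 59.7, 67.5 and 59.9 FPKM in WT and at 50.7, 65.3 and 51.4 in the KLF12 group, for a difference of -0.17 ± 0.14. Its KLF12 library 2 lay inside the WT range. Cdc45, which joins the MCM ring and GINS in the active helicase, had a difference of 0.10 ± 0.15.

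Among the polymerases, clamp and loader, levels covered a wide range. Pcna, the sliding clamp, was the highest of the 40 genes, listed at 621, 561 and 585 FPKM in WT and at 559, 630.2 and 419 in the KLF12 group. The first 2 KLF12 libraries lay just outside the WT range on either side and library 3 well below it, and the difference was -0.15 ± 0.16 (limma adjusted p = 0.82). Pole, the catalytic subunit of the leading-strand polymerase, had the lowest WT mean of the 40, at 12.7, 15.4 and 14.6 FPKM in WT and 13.0, 14.4 and 20.2 in the KLF12 group. Only library 3 left the WT range, and upward (0.13 ± 0.18). Pola1, the catalytic subunit of the priming polymerase, and the clamp loader subunits Rfc3 and Rfc4 had differences of 0.02, 0.06 and -0.13. Rfc4 was listed at 57.9, 59.3 and 59.2 FPKM in WT and at 53.9, 68.3 and 42.1 in the KLF12 group, so that a narrow WT range was passed on both sides. For Rfc3 the spread among KLF12 libraries was the widest of the 40, with an SD of 0.42 on the log2 scale.

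The nucleotide supply genes had no member called. Tyms, thymidylate synthase, was listed at 108, 109.9 and 103 FPKM in WT and at 94.8, 116 and 78.8 in the KLF12 group, a difference of -0.16 ± 0.15 (limma adjusted p = 0.78). KLF12 library 2 lay above WT and the other two below. The ribonucleotide reductase subunits Rrm1 and Rrm2 had differences of -0.02 and -0.07, and the sign of these small values turned with the scaling (2 of the 3 genes were positive after quantile normalization). Rrm2 was listed at 172, 192 and 205 FPKM in WT and at 151, 204 and 188 in the KLF12 group, with library 1 alone below WT. Rrm2 was 1.77 to 2.23 times as high as Rrm1 in WT and 1.47 to 2.60 times in the KLF12 group, a wider range that holds the WT values. Ccne1, the G1/S cyclin that activates Cdk2, had a difference of -0.08 ± 0.18.

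Mitotic cyclins and their kinase had no member called. Cdk1 had a log2 difference of -0.15 ± 0.17, Ccna2 one of 0.09 ± 0.13, and the B-type cyclins Ccnb1 and Ccnb2 values of -0.07 ± 0.15 and 0.13 ± 0.12. Ccnb1 was listed at 138, 123 and 128 FPKM in WT and at 124, 149 and 101 in the KLF12 group, with library 2 above and library 3 below WT. For Cdk1, KLF12 library 3 at 56.8 FPKM was below all others, which lay between 77.1 and 89.1. Ccnb1 was 1.94 to 2.10 times as high as Ccnb2 in WT and 1.52 to 1.96 times in the KLF12 group, so the ranges of this ratio overlapped.

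Mitotic kinases and chromosomal passengers had 4 of 5 values below 0 under each of the 5 scalings tried. Plk1, the polo-like kinase of spindle assembly and cytokinesis, was listed at 85.6, 94.4 and 107 FPKM in WT and at 61.6, 76.4 and 85.6 in the KLF12 group. The groups did not overlap, though the highest KLF12 library (85.58) all but met the lowest WT library (85.61). The difference was -0.36 ± 0.15 (limma unadjusted p = 0.040, adjusted p = 0.43). Birc5, or survivin, a passenger protein, was listed at 139, 154 and 148 FPKM in WT and at 124, 153 and 99.99 in the KLF12 group, a difference of -0.24 ± 0.16 (limma adjusted p = 0.65), or -0.09 without library 3 and -0.40 without library 2. KLF12 library 2 lay within the WT range. Aurka and Aurkb, the Aurora kinases of the spindle poles and the centromeres, had differences of -0.17 ± 0.17 and -0.14 ± 0.16. Aurka was listed at 83.4, 90.4 and 98.1 FPKM in WT and at 62.2, 99.98 and 82.5 in the KLF12 group, with library 1 the lowest. Aurkb was listed at 52.3, 53.9 and 62.8 FPKM in WT and at 42.3, 49.4 and 63.1 in the KLF12 group, so that libraries 1 and 2 lay below WT and library 3 just above it. Tpx2, the activator of Aurora A on spindle microtubules, had one of 0.08 ± 0.11.

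The spindle checkpoint and APC/C genes had 5 of 5 values below 0, and 4 of 5 after quantile normalization, but none was called. Cdc20, the APC/C activator that the checkpoint holds back, was listed at 148, 166 and 163 FPKM in WT and at 125, 145 and 138 in the KLF12 group, without overlap. Its difference was -0.23 ± 0.12 (limma adjusted p = 0.54). Mad2l1, the checkpoint protein that binds Cdc20, was listed at 122, 119.61 and 123 FPKM in WT and at 107, 119.55 and 81.6 in the KLF12 group. The groups did not overlap, but KLF12 library 2 all but met the lowest WT library, and the difference was -0.25 ± 0.15 (limma adjusted p = 0.61), or -0.10 without library 3. Ube2c, the ubiquitin-conjugating enzyme of the APC/C, had the highest WT mean among the mitosis genes, at 206, 215 and 235 FPKM in WT and 168, 212 and 176 in the KLF12 group, a difference of -0.24 ± 0.13 (limma adjusted p = 0.56). Its KLF12 library 2 lay within the WT range. The checkpoint kinases Bub1 and Bub1b had differences of -0.10 and -0.05. Bub1 was listed between 39.3 and 44.7 FPKM in WT and at 45.04, 42.2 and 29.6 in the KLF12 group, with library 3 apart from the others.

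Genes for spindle motors and kinetochore proteins had 3 of 4 values above 0 under each scaling. Cenpf, a large kinetochore protein, was listed at 22.0, 17.7 and 17.6 FPKM in WT and at 24.0, 28.1 and 26.5 in the KLF12 group, without overlap. This was the largest difference of the 40 genes, 0.44 ± 0.14, and it did not pass after adjustment (limma unadjusted p = 0.014, adjusted p = 0.29). Cenpe, the kinetochore motor, was listed at 20.5, 16.8 and 16.8 FPKM in WT and at 19.3, 24.1 and 18.7 in the KLF12 group, a difference of 0.19 ± 0.16 (limma adjusted p = 0.75). WT library 1 lay above KLF12 libraries 1 and 3. The motors Kif11, which pushes the spindle poles apart, and Kif23, which acts in cytokinesis, had differences of 0.05 and -0.08.

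Mki67, the chromosome surface protein used as a proliferation marker, was listed at 52.9, 43.3 and 43.7 FPKM in WT and at 52.2, 53.1 and 64.5 in the KLF12 group, a difference of 0.27 ± 0.14 (limma adjusted p = 0.53). WT library 1 lay between KLF12 libraries 1 and 2. Top2a, the topoisomerase that untangles sister chromatids, was listed at 164, 164 and 158 FPKM in WT and at 187, 183 and 131 in the KLF12 group, for a difference of 0.03 ± 0.15, with KLF12 libraries 1 and 2 above the WT range and library 3 below it.

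The groups did not overlap for 4 of 40 members, against 16.9% of all genes tested. In Plk1, Cdc20 and Mad2l1 the KLF12 group was lower (3 of 40, against 8.98% of all genes), and in Cenpf it was higher (1 of 40, against 7.9%), and all 4 are in the mitosis list. Both the members and the balance of directions changed with the scaling. When the libraries were scaled to equal sums (TPM), 3 were higher (Ccna2, Tpx2 and Cenpf) and 2 lower (Mad2l1 and Ube2c). That is 5 of 40, against 16.5% of all genes. By quantiles, 4 were higher (Ccnb2, Tpx2, Cenpf and Mki67) and 1 lower (Mad2l1), or 5 of 40 against 17.5% of all genes. By median-of-ratios, 2 were higher (Cenpf and Mki67) and 2 lower (Plk1 and Cdc20), or 4 of 40 against 17.1% of all genes. After the trend with transcript length was removed, Ccnb2 alone did not overlap, and it was higher, against 18.2% of all genes. When libraries were left out, the count of members was 9 of 40 (WT library 1), 13 of 40 (KLF12 library 2) and 14 of 40 (KLF12 library 3), against 27.2%, 30.4% and 39.6% of all genes, since fewer libraries overlap less often by construction.

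Replication and mitosis genes were compared within each library, as the median over the 20 genes of the value relative to the WT mean. Replication genes lay at -0.05, -0.01 and 0.02 in WT libraries 1 to 3 and at -0.10, 0.11 and -0.12 in KLF12 libraries 1 to 3. Mitosis genes lay at 0.00, -0.03 and 0.03 in WT and at -0.05, 0.15 and -0.14 in the KLF12 group. Both lists thus had the same order among the KLF12 libraries, with library 2 above WT and libraries 1 and 3 below. The median over all genes tested was -0.05, -0.01 and 0.04 in these 3 libraries, so that in library 1 the mitosis median was about that of all genes, and in library 3 both lists lay on the other side of 0 from it. The mitosis median minus the replication median was 0.05, -0.01 and 0.01 in WT and 0.05, 0.03 and -0.02 in the KLF12 group, so that the groups overlapped. The difference between the 2 lists' median log2 differences was -0.05, and it turned to 0.06 without KLF12 library 3, where the mitosis median was 0.05 and the replication median -0.00.

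**Figure D3:**
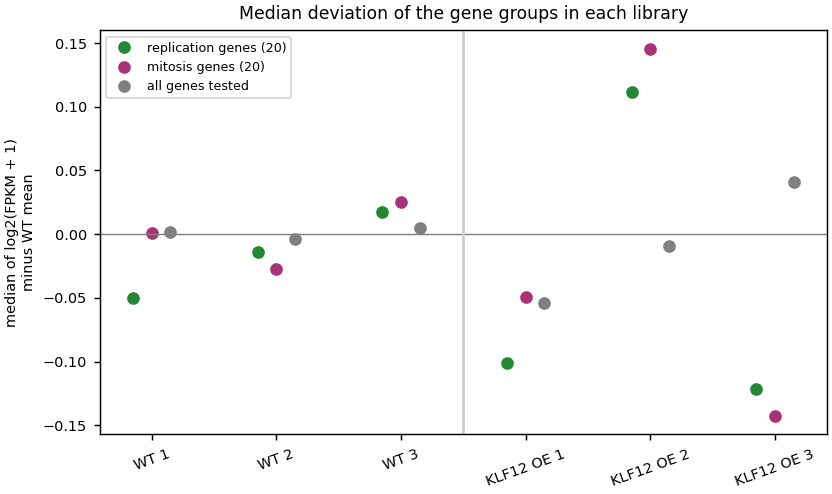
Median over the 20 replication genes, the 20 mitosis genes and all 12141 genes tested of log2(FPKM + 1) minus the WT mean, in each of the 6 libraries. Both lists are highest in KLF12_OE 2, at 0.11 and 0.15, and lowest in KLF12_OE 3, at -0.12 and -0.14, while the WT libraries lie between -0.05 and 0.03.

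The KLF12 libraries differed more among themselves than the WT libraries did. The SD of log2 values was larger in the KLF12 group for 35 of 40 members, against 71.8% of all genes tested, with a median SD over the members of 0.09 in WT and 0.26 in the KLF12 group. Over all genes these medians were 0.14 and 0.26. Among the MCM subunits the SD was larger in the KLF12 group for 2 of 6, and the SD in that group was 0.05 to 0.16 for all but Mcm7 (0.28). Of the 40 genes, 16 lay above their WT mean in KLF12 library 1, 30 in library 2 and 9 in library 3, and the genes high in library 2 included the loader subunit Rfc3, listed at 95.7 FPKM against 58.9 and 55.8 in libraries 1 and 3. In a fit of the 4 libraries in which Ddx3y was above 0, which leaves KLF12 library 3 alone against WT and assumes that it varies like WT, limma called 6 of 40 members, all lower, against 6.89% of all genes called and 4.55% called lower: Pcna, Rfc4, Tyms, Cdk1, Birc5 and Mad2l1. Their log2 differences there were -0.43 to -0.56. The groups did not overlap there for 30 of 40 members, against 70.1% of all genes. This fit describes 1 library. Without library 3, limma called 0 of 40.

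**Figure D4:**
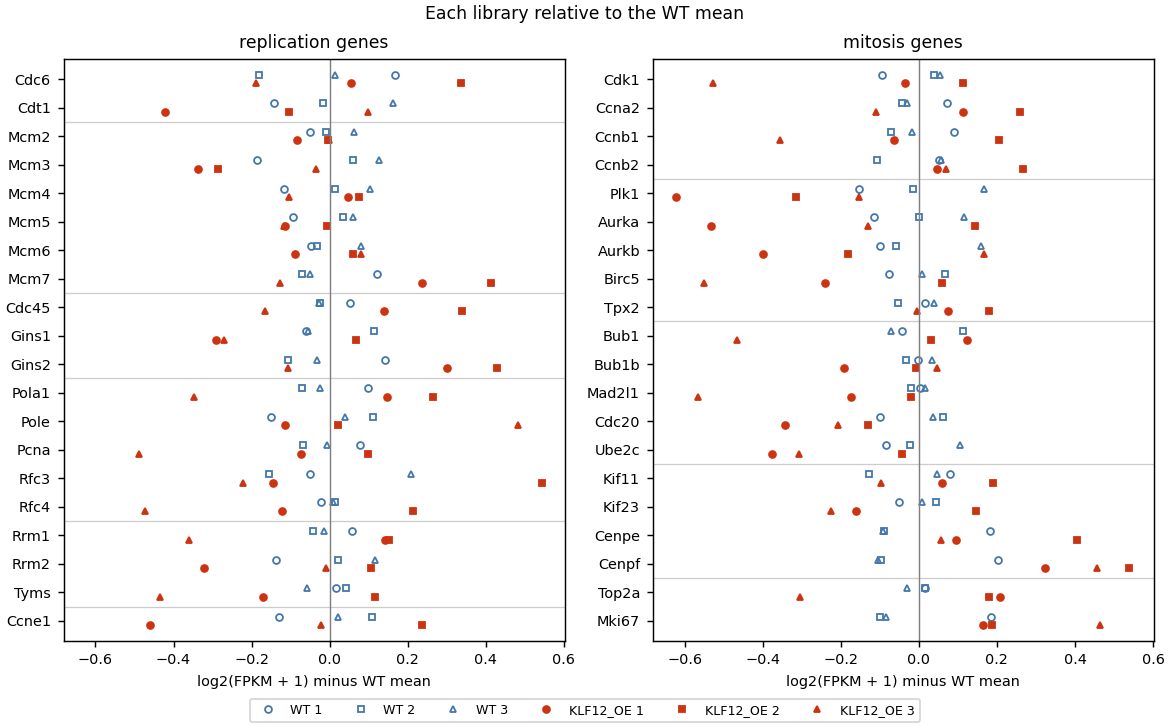
Log2(FPKM + 1) minus the WT mean for each gene in the 3 WT (open symbols) and 3 KLF12_OE (filled symbols) libraries, by role. The filled triangles of KLF12_OE 3 lie far to the left for Pcna, Rfc4, Tyms, Cdk1, Birc5, Bub1 and Mad2l1. They lie far to the right for Pole, Cenpf and Mki67. The filled squares of KLF12_OE 2 lie mostly to the right, and Mcm2, Mcm5 and Mcm6 lie within 0.12 of 0 in all 6 libraries.

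Transcript length moved with some of these values. In KLF12 library 3, the deviation from WT was larger for longer transcripts (the longest annotated one of each gene) across 11674 genes, with a Spearman rho of 0.42, and rho was 0.05 and -0.22 in KLF12 libraries 1 and 2. Across the 40 members, which share their libraries, rho was 0.56, 0.18 and 0.17 in KLF12 libraries 1 to 3 and 0.41, -0.25 and -0.33 in WT libraries 1 to 3. The 2 members with the longest transcripts, Cenpf and Mki67 at 11130 and 10061 bases, were above their WT mean in 3 of 3 KLF12 libraries. They were also higher in WT library 1 than in the other WT libraries. With the trend removed from each library, the difference of Cenpf was 0.38 (limma adjusted p = 0.47) and that of Mki67 was 0.22 (0.58), and 0 of 40 members were called. Mad2l1, whose longest annotated transcript has 7557 bases, went the other way, at -0.56 in KLF12 library 3.

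**Figure D5:**
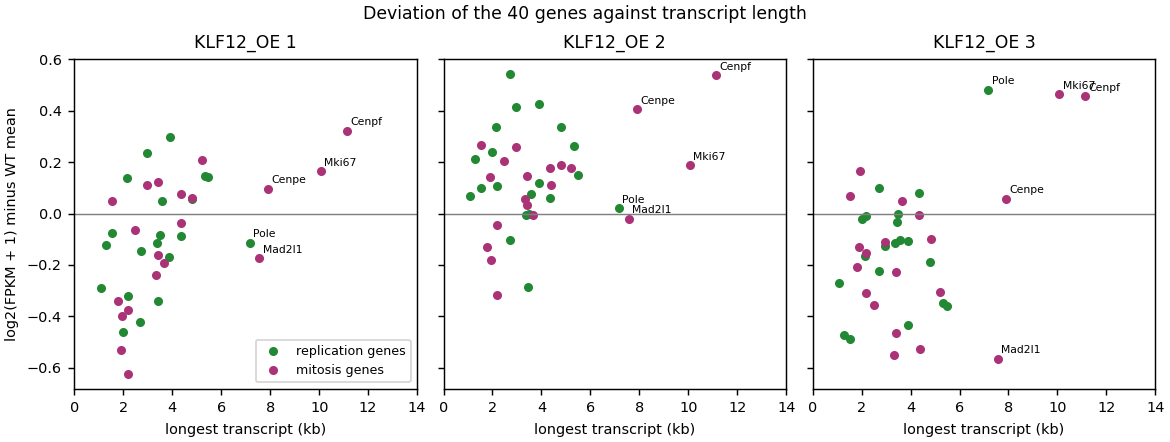
Log2(FPKM + 1) minus the WT mean of each of the 40 genes in KLF12_OE libraries 1, 2 and 3 against the length of its longest annotated transcript in kilobases, with replication and mitosis genes in different colours. Cenpf and Mki67, the longest, lie above 0 in each panel, and in KLF12_OE 3 most of the shorter genes lie below it.

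Other genes of the same pathways were taken from lists drawn up by function. Of 41 further replication factors, all tested, 0 were called by limma, against 0.733% of all genes. An unadjusted limma p under 0.05 was found for 1 of 41, against 10.9% of all genes. Of the 41, 29 had values below 0 (median -0.06), against 6398 of all 12141 genes tested. Rpa3, a subunit of the single-strand binding complex RPA, was listed at 105, 109.6 and 120.1 FPKM in WT and at 85.9, 92.6 and 59.2 in the KLF12 group, a difference of -0.51 ± 0.17 (limma adjusted p = 0.30). Dut, the enzyme that keeps uracil out of DNA, was listed at 93.7, 97.4 and 100.4 FPKM in WT and at 75.5, 89.0 and 81.4 in the KLF12 group, a difference of -0.25 ± 0.12 (limma adjusted p = 0.49). In both genes the groups did not overlap, and the same held for Pole4, a polymerase epsilon subunit, and Orc4, of the origin recognition complex. All 4 were lower, which is 4 of 41 against 8.98% of all genes. Of 55 further mitotic genes tested, 0 were called by limma, against 0.733% of all genes. An unadjusted limma p under 0.05 was found for 0 of these 55, against 10.9% of all genes. Values below 0 were found for 37 of them (median -0.09), against 6398 of all 12141 genes tested. The groups did not overlap for 7 of 55 (3 higher and 4 lower), against 16.9% of all genes. Aspm, a spindle pole protein needed for neural progenitor division, had a difference of 0.32 ± 0.16, and Racgap1, a cytokinesis protein, one of -0.33 ± 0.17 (limma adjusted p = 0.53 for both). Of both lists, only Rpa3, Dut, Aspm and Racgap1, chosen by their small p, were followed under the alternatives. With array weights, limma called Rpa3 (adjusted p = 0.034), Dut (0.034) and Racgap1 (0.039) lower, and did not call Aspm. In that fit 13.1% of all genes were called and 8.44% were called lower. In the 4 libraries with Ddx3y above 0, with KLF12 library 3 alone against WT, the difference of Rpa3 was -0.90. The longest annotated transcript of Rpa3 has 682 bases. With the length trend removed from each library, its difference was -0.36 (limma adjusted p = 0.21). Those of Dut, Racgap1 and Aspm were then -0.20, -0.33 and 0.27.

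Regulators of the cycle were tested as well. Of 22 listed genes of the E2F, RB, MuvB and MYC families, 21 were tested (Rbl2 was below the filter). By limma 0 of 21 were called, against 0.733% of all genes. An unadjusted limma p under 0.05 was found for 0 of 21, against 10.9% of all genes. Values above 0 were found for 11 of 21 (median 0.04), against 47.3% of all genes. The groups did not overlap for 1 of 21, against 16.9% of all genes. E2f7, an E2F repressor, was listed at 10.6, 10.7 and 10.3 FPKM in WT and at 7.83, 6.13 and 9.83 in the KLF12 group, without overlap, a difference of -0.39 ± 0.19 (limma adjusted p = 0.49). E2f1, an activator, had a difference of 0.23 ± 0.15. Of 16 listed G1 cyclins, CDKs, inhibitors and entry regulators, 14 were tested (Cdkn2a and Cdkn2b were below the filter). By limma 0 of 14 were called, against 0.733% of all genes. An unadjusted limma p under 0.05 was found for 3 of 14, against 10.9% of all genes. All 3 were lower: Cdkn1b, Cdkn1a and Pkmyt1, an inhibitory kinase of Cdk1 (-0.38 ± 0.16). The CDK inhibitor Cdkn1b (p27) was listed at 15.01, 12.3 and 13.5 FPKM in WT and at 11.3, 9.55 and 9.01 in the KLF12 group, without overlap, a difference of -0.42 ± 0.16 (limma adjusted p = 0.37). The groups did not overlap for Pkmyt1 either, which makes 2 of 14, against 16.9% of all genes. Cdkn1a (p21), a p53 target, was at 3.67, 8.09 and 6.07 FPKM in WT and 2.09, 3.31 and 3.93 in the KLF12 group, and WT library 1 lay below KLF12 library 3 (-0.73 ± 0.29, limma adjusted p = 0.39, and 0.022 with array weights). In the fit with array weights 13.1% of all genes were called.

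Of 18 replication checkpoint and damage response genes, 1 was called by limma, lower, against 0.733% of all genes called and 0.634% called lower. This was Rad9a, a subunit of the checkpoint clamp that signals stalled forks. It was listed at 4.05, 6.64 and 7.95 FPKM in WT and at 0.85, 0 and 0 FPKM in KLF12 libraries 1, 2 and 3, a fitted difference of -2.51 that depends on the pseudocount and is no bound (limma adjusted p = 0.013). The call was lost without WT library 2 or 3 or KLF12 library 2 (limma adjusted p = 0.0904, 0.0953 and 0.0502), with a pseudocount of 0.1 (0.0525) and with no filter (0.071). The fitted difference there was -2.45, -2.34, -2.37, -4.84 and -2.51, so that the adjusted p crossed the threshold while the direction and, at the same pseudocount, the size changed little. Hus1 and Rad1, the other subunits of that clamp, had log2 differences of -0.14 and -0.13 and were not called. The groups did not overlap for Hus1, which was lower, and did for Rad1. Of the 18 genes, 3 did not overlap (Rad9a and Hus1 lower, Atm higher), against 16.9% of all genes.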

How the data were processed

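RNA-seq of 6 whole-fetus libraries, 3 WT and 3 KLF12-overexpressing, was analysed. The authors deposited 1 table of FPKM values. CASAVA, HISAT2 2.0.4, RSEM 1.2.8 and mm9 are named per the submitters' processing notes, with no role or order. No counts are in the table and a count model was not used. The depth of each library is not given in the sources used here. Gene numbers were matched to symbols for 16874 of 17741 rows. The remaining rows are 777 labelled as unannotated transcripts and 90 numbers without a symbol.

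Groups were taken from the genotype labels. Values were tested as log2(FPKM + 1) with limma 3.58.1 (R 4.3.3, empirical Bayes with a mean trend) in the 12141 genes that averaged 1 FPKM or more, with Benjamini-Hochberg adjustment and a threshold of 0.05. The script was tested on simulated data. Errors are SE of the fit unless stated. Named genes were the members whose groups did not overlap, those with the 3 largest differences in each direction and the 2 highest WT means in each list, and, in each pathway list, the called genes or else the 2 smallest p. Other members are given by role. The members and lists were chosen with earlier results of these data known. Alternatives were other pseudocounts (0.1 and 0.5), filters (none, and 5 FPKM), scalings (TPM, median-of-ratios, quantile), removal of the length trend, no variance trend, array weights, a threshold of 0.1, a replicate block, leaving out each library and, chosen after seeing the data, the 4 libraries with Ddx3y above 0. Promoter windows came from RefSeq (GRCm38.p6) and transcript lengths from GENCODE for that build. Coordinates of the mm9 build were not used.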

Additional observations from a re-analysis of the deposited data

How the results depend on the processing

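No member was called under 17 of 19 alternatives. The exceptions were array weights, with 3 members called, and the 4 libraries with Ddx3y above 0, with 6. Of the 40 members, 13 kept the sign of their difference under all 19 alternatives and 31 were never called. Over all genes, 89 were called as reported, 29 with no filter, 55 as TPM, 146 with the length trend removed, 1585 with array weights, 173 at an adjusted p under 0.1 and 837 in the 4 libraries with Ddx3y above 0. Leaving out each library gave 14 (without WT library 3) to 319 (without KLF12 library 3). Members whose groups did not overlap numbered 4 as reported, 1 once the length trend was taken out (18.2% of all genes), 30 in the 4 libraries with Ddx3y above 0 (70.1% of all genes, with 1 KLF12 library against 3 of WT), and 4 to 14 when each library was left out (22.4% to 39.6% of all genes). The mitosis median minus the replication median ranged from -0.059 to 0.056 over the same omissions, above 0 only without KLF12 library 3. With the replicate number as a block, 64 genes and 0 members were called and the medians stayed at -0.03 and -0.08. The numbers were not shown to pair the samples, since same-numbered libraries had correlations of 0.03, -0.11 and 0.04 in their deviations from the group means. Klf12 was called throughout. The FPKM table gives no depth, and 3 libraries a group limit the precision.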
